A study of Mus musculus with 16 samples.

Results

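The genes that carry the insulin signal to glucose uptake, 10 in all, were followed in epididymal white adipose tissue (eWAT), the abdominal fat pad of male mice. They were chosen by function, for their place in the route by which insulin drives glucose into an adipocyte. Earlier results of these data were known when the choice was made. All of the 10 genes were found among the 55573 genes of the count table and among the 20822 genes tested. The tissue came from C57BLKS/J-db/db males, which lack a working leptin receptor and become obese and diabetic on chow. AAV8-LRG1-FL or AAV8-eGFP was given at 4 weeks of age, and tissue was taken at week 7 or week 10, with 4 libraries in each of the 4 groups. LRG1 (leucine-rich alpha-2 glycoprotein 1) is a secreted protein made by adipocytes and liver, here overexpressed with a C-terminal FLAG tag, and eGFP is the control protein. All groups thus share the db/db genotype, the male sex, the AAV8 vector and the age at injection. According to the study's methods virus was assigned by cage, and since cages are not labelled, cage and virus cannot be told apart. AAV8 reaches liver as well as fat, so the overexpression was not limited to the depot sequenced. Whole tissue was used, and in whole tissue fewer cells of a type and less RNA per cell cannot be told apart. The labels do not say that each library is 1 mouse, so the p-values measure the spread between these libraries.

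Insulin binds its receptor, which phosphorylates the IRS docking proteins. These recruit phosphoinositide 3-kinase (PI3K), whose lipid product leads to activation of AKT2. AKT2 switches off the GTPase-activating protein TBC1D4, which lets vesicles with the transporter GLUT4 reach the plasma membrane, and it holds the transcription factor FOXO1 out of the nucleus. Glucose that enters through GLUT4 is trapped by hexokinase 2. Much of this control acts on proteins by phosphorylation and movement, which transcript counts do not measure. In obesity adipose GLUT4 is known to be low.

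The libraries held 45376227 to 67539937 counts. Lrg1, the check of the labels, was 346 CPM (counts scaled to a library total of 1000000, with TMM factors, as a mean of 4 libraries) in LRG1 libraries and 103 CPM in eGFP libraries at week 7, and 461 CPM and 106 CPM at week 10, without overlap. These counts do not separate the vector transcript from the mouse gene. Fat markers were abundant in every library, with Adipoq, the adiponectin gene, at 409 to 1539 CPM. As Slc2a4 and Hk2 are also muscle genes, 14 skeletal muscle genes were read. They summed to 35.0 to 45.1 CPM in LRG1 and 34.3 to 41.4 CPM in eGFP libraries at week 7, and to 32.3 to 68.6 CPM and 15.3 to 55.5 CPM at week 10. Of the 11 that were tested 0 were called higher at either week, and 1 was called lower at week 7. Over all tested genes 7.37% were called higher and 10.7% lower at week 7, and 3.66% and 5.24% at week 10. The median log2 fold change of LRG1 over eGFP of these 11 muscle genes was -0.01 at week 7 and 0.67 at week 10. Most of the sum was Acta1, the skeletal actin gene, at 7.14 to 53.8 CPM over the libraries, and Myl1, a muscle myosin light chain gene, at 2.82 to 9.71 CPM, while Ckm, the muscle creatine kinase gene, reached at most 0.127 CPM. The part of muscle RNA in the Slc2a4 and Hk2 counts was not tested. Mitochondrial ribosomal RNA took 27.1% to 30.4% of counts in LRG1 libraries and 24.1% to 25.8% in eGFP libraries at week 7, and 24.8% to 28.1% and 24.3% to 27.5% at week 10. Genes on the opposite strand that overlap Irs1, Irs2, Slc2a1 or Foxo1 held at most 59 counts summed over the 16 libraries.

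Promoter windows from 250 bases before to 50 bases after the transcription start were at hand for 8 of the 10 genes, not for Insr and Slc2a4 (RefSeq, GRCm38.p6). Of these, 4 are printed. Foxo1 and Hk2 were higher in LRG1 fat at week 7, as were Pik3r1 and Tbc1d4, whose windows are not printed. Irs1 and Irs2 are printed because this paralog pair was not called at either week and its windows share a pair of motifs. Capitals mark exact matches, on either strand, to GGGCGG (the GC box of SP and KLF factors), CACGTG (the E-box of USF, MYC and ChREBP), ACGTG (the core of the hypoxia response element, which lies within CACGTG) and CAAAACA (the core of the insulin response element). GTAAACA, a binding element of FOXO factors, was also searched for.
Foxo1, chr3:52268087-52268386, plus strand: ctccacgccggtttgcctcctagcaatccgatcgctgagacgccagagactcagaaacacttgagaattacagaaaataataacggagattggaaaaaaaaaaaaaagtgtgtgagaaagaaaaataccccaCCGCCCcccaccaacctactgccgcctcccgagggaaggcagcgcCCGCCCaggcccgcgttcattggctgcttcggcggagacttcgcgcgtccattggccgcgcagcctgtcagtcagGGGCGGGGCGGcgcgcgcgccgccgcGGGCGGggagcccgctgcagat
Hk2, chr6:82774405-82774704, minus strand: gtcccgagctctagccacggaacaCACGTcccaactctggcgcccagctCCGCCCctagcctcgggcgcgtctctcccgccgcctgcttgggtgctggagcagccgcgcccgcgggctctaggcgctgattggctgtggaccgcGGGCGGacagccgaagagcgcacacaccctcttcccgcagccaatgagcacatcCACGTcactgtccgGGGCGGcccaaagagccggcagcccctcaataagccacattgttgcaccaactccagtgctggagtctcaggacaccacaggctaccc
Irs1, chr1:82291390-82291689, minus strand: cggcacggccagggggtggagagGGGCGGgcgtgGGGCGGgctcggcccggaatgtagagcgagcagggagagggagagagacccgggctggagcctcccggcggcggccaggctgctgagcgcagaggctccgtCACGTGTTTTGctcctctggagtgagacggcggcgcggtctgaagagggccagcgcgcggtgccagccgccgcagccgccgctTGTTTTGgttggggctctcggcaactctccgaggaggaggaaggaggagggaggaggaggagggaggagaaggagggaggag
Irs2, chr8:11008880-11009179, minus strand: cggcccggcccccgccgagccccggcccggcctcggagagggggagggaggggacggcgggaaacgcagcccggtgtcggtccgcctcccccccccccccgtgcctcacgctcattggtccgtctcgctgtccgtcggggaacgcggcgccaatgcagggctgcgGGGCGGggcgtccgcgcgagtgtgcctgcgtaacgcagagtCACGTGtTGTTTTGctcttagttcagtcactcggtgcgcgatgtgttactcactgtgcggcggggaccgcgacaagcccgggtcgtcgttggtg
The Irs1 and Irs2 windows each held a CACGTG followed within a few bases by CAAAACA read on the other strand (TGTTTTG as printed). In Irs1 both overlap by 2 bases, with the E-box at -115 and the CAAAACA match at -111, and in Irs2 they begin at -44 and -37 from the start. Among 32851 promoter windows of the same length, CACGTG was in 7.15% and CAAAACA in 6.28%. The 8 genes have 12 windows, 4 of them of Akt2. GGGCGG was in 8 of the 12 windows, 1 of each gene, against 35.7% of all windows, and ACGTG in 5 of the 12 (of Irs1, Irs2, Slc2a1, Hk2 and Akt2), against 19.6%. GTAAACA was in none of the 12 windows and in 3.65% of all windows. These matches are a description of the letters in the windows and not of binding.

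At week 7 Slc2a4, Foxo1, Hk2, Pik3r1 and Tbc1d4 were higher in LRG1 fat and passed the test (edgeR quasi-likelihood, Benjamini-Hochberg adjusted p below 0.01), which is 5 of 10 genes higher and 0 lower. Of all tested genes 7.37% were called higher and 10.7% lower (18% in either direction). The median log2 fold change was 0.43 over the 10 genes and 0.006 over all tested genes. In 8 of the 10 genes all 4 LRG1 libraries lay above all 4 eGFP libraries, which was so for 18.6% of tested genes. These directions are relative to the whole transcriptome, and when libraries were scaled to 10 adipocyte genes instead, Slc2a4, Hk2 and Foxo1 stayed above 0 and Insr, Irs1, Irs2, Pik3r1, Akt2 and Tbc1d4 turned to values below 0.

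**Figure D1:**
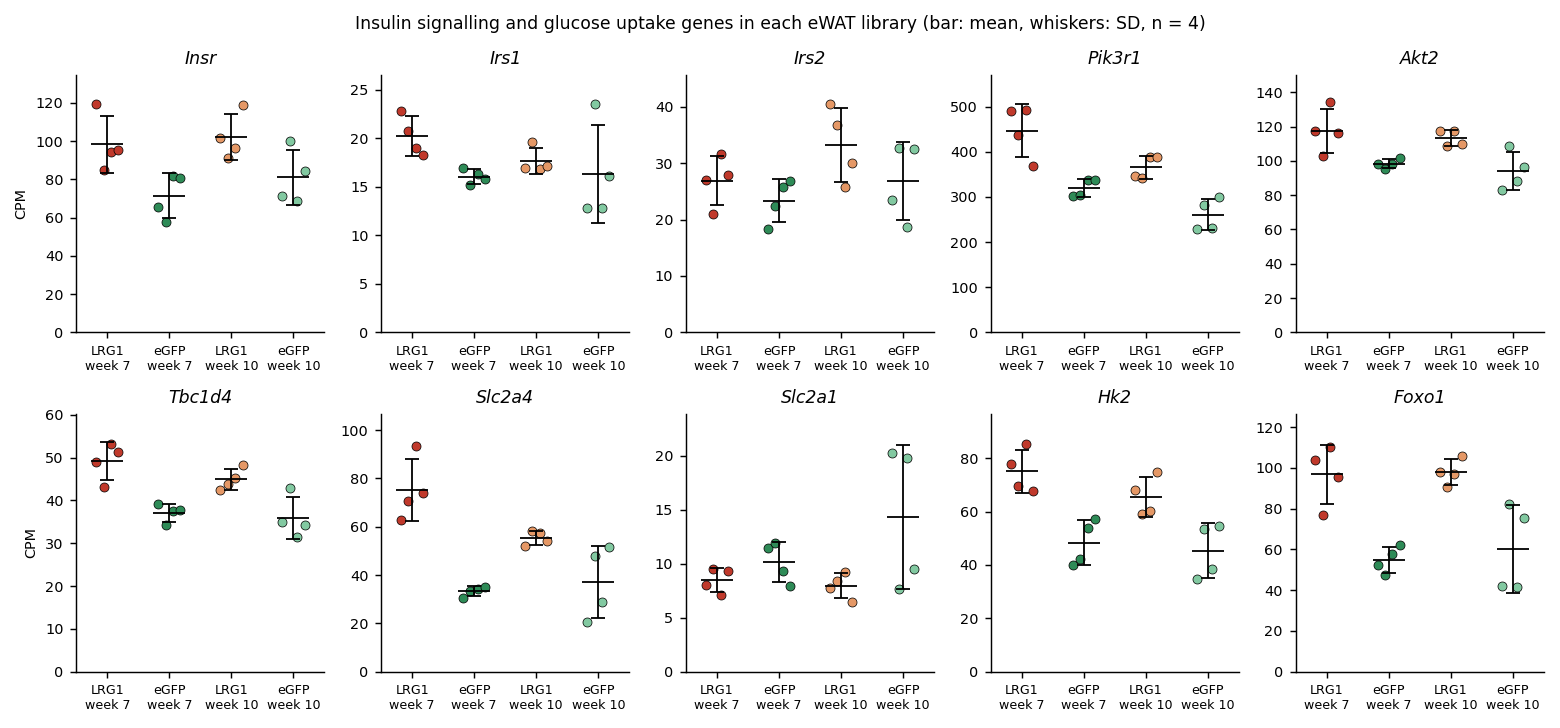
CPM (vertical axis, TMM scaling, from 0) of the 10 genes in each of the 16 libraries, with points for libraries, a bar for the mean and whiskers for the SD of 4 libraries. Slc2a4 sits at 63.0 to 93.4 CPM in LRG1 libraries and at 30.7 to 35.2 CPM in eGFP libraries of week 7, and the eGFP libraries of week 10 split into a lower and a higher pair for Slc2a4, Foxo1 and Hk2.

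Slc2a4 encodes GLUT4, the insulin-responsive transporter, and lies on chromosome 11 from 69942539 to 69948188 (GRCm38, minus strand). It had 63.0, 70.7, 93.4 and 73.8 CPM in LRG1 libraries of week 7, against 30.7, 33.6, 34.3 and 35.2 CPM in eGFP libraries. The lowest LRG1 library was well above the highest eGFP library. The log2 fold change was 1.17 (SE 0.21, adjusted p = 7.9e-04), or 2.25-fold, with a 95% interval of 0.72 to 1.62 on the log2 scale. The call was the same when any 1 of the 8 libraries was left out, with log2 fold changes of 1.05 to 1.25, and Slc2a4 kept its call when libraries were scaled to 10 adipocyte genes, at 0.55 (adjusted p = 0.0042).

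Foxo1, a FOXO factor that insulin restrains through AKT, lies on chromosome 3 from 52268336 to 52353221. It had 104, 76.8, 110.5 and 95.7 CPM in LRG1 libraries of week 7, against 52.2, 47.3, 57.6 and 62.2 CPM in eGFP libraries. Its promoter window holds 5 matches to GGGCGG and none to the other motifs. All LRG1 libraries were higher, with a log2 fold change of 0.82 (SE 0.19, adjusted p = 0.0045), or 1.76-fold. Hk2, whose enzyme phosphorylates glucose in insulin-sensitive tissues, lies on chromosome 6 from 82725025 to 82774454. It had 77.7, 69.8, 85.3 and 67.7 CPM in LRG1 libraries, against 40.0, 42.4, 53.8 and 57.2 CPM in eGFP libraries. Its window holds 3 matches to GGGCGG and 2 to ACGTG. Again the groups did not overlap, and the log2 fold change was 0.64 (SE 0.15, adjusted p = 0.0051), or 1.55-fold. With scaling to the adipocyte genes Foxo1 was at 0.22 (adjusted p = 0.22) and Hk2 at 0.03 (adjusted p = 0.87), so neither call was kept.

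Slc2a1 encodes GLUT1, the transporter of basal glucose uptake, and is on chromosome 4 from 119108711 to 119137983. It had 8.07, 9.47, 7.11 and 9.35 CPM in LRG1 libraries of week 7, against 11.4, 11.9, 9.35 and 7.92 CPM in eGFP libraries. The groups overlapped and the difference did not pass, at -0.26 on the log2 scale (SE 0.26, adjusted p = 0.48, 95% interval -0.80 to 0.29). It was the only one of the 10 genes with a fitted value below 0 on the TMM scale at week 7.

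Pik3r1 encodes the p85-alpha regulatory subunit of PI3K and lies on chromosome 13 from 101680563 to 101768217. It had 490.4, 438, 491 and 368 CPM in LRG1 libraries of week 7, against 303, 304, 338 and 337 CPM in eGFP libraries. Its log2 fold change was 0.48 (SE 0.11, adjusted p = 0.0034), and the groups did not overlap. Tbc1d4, on chromosome 14 from 101442360 to 101609191, encodes the protein that holds GLUT4 vesicles inside the cell until AKT acts on it. It had 49.1, 43.0, 53.2 and 51.4 CPM in LRG1 libraries, against 39.2, 34.2, 37.4 and 37.7 CPM in eGFP libraries, a log2 fold change of 0.41 (SE 0.09, adjusted p = 0.0034). Akt2, the AKT isoform most tied to glucose uptake in fat, is on chromosome 7 from 27591552 to 27640826. It had 117, 103, 134 and 117 CPM in LRG1 libraries and 98.2, 95.1, 98.0 and 102 CPM in eGFP libraries. Its groups did not overlap, yet its log2 fold change of 0.26 (SE 0.09, adjusted p = 0.034) did not pass the threshold. On scaling to the adipocyte genes Pik3r1 was at -0.12 (adjusted p = 0.56), Tbc1d4 at -0.20 (adjusted p = 0.33) and Akt2 at -0.35 (adjusted p = 0.067).

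The receptor and its docking proteins were not called at week 7. Insr, the insulin receptor gene on chromosome 8 from 3122061 to 3279617, had 119, 84.7, 94.0 and 95.4 CPM in LRG1 libraries, against 65.5, 57.9, 81.7 and 80.8 CPM in eGFP libraries. The LRG1 libraries lay above the eGFP libraries, and the log2 fold change was 0.46 (SE 0.14, adjusted p = 0.022). Irs1 and Irs2, whose promoter windows share the E-box and CAAAACA pair, encode the main docking proteins of the receptor. Irs1, on chromosome 1 from 82233101 to 82291416, had 22.9, 20.7, 18.99 and 18.2 CPM in LRG1 libraries, against 16.9, 15.2, 16.3 and 15.8 CPM in eGFP libraries. It was also without overlap, at 0.33 (SE 0.15, adjusted p = 0.11). Irs2, on chromosome 8 from 10984681 to 11008458, had 27.1, 21.1, 31.6 and 27.9 CPM in LRG1 libraries and 18.3, 22.4, 25.8 and 26.9 CPM in eGFP libraries. Its groups overlapped, and the 95% interval of its log2 fold change ran from -0.19 to 0.60. The Insr call passed with DESeq2 (0.46, adjusted p = 0.0097) and the Irs1 call in a fit of only the 8 libraries of week 7 (0.31, adjusted p = 0.0088).

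The count of 5 genes fell when 1 library was left out, for most of the libraries. It was 2 without eGFP library 1, 1 without eGFP library 2 and 3 without eGFP library 3, and it was 2 without LRG1 library 1, 1 without LRG1 library 3 and 3 without LRG1 library 4. In each of these Slc2a4 was called, and the calls lost were of Pik3r1, Tbc1d4, Hk2 or Foxo1, whose adjusted p then lay between 0.011 and 0.022. The directions of these genes did not turn. Over all tested genes the count in the same comparison was 3755 with all libraries. It also fell whenever 1 library was left out, so the fall was not limited to these genes. With library totals only, 1 of the 10 genes was called, Slc2a4 at 1.00 (adjusted p = 0.0026).

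**Figure D2:**
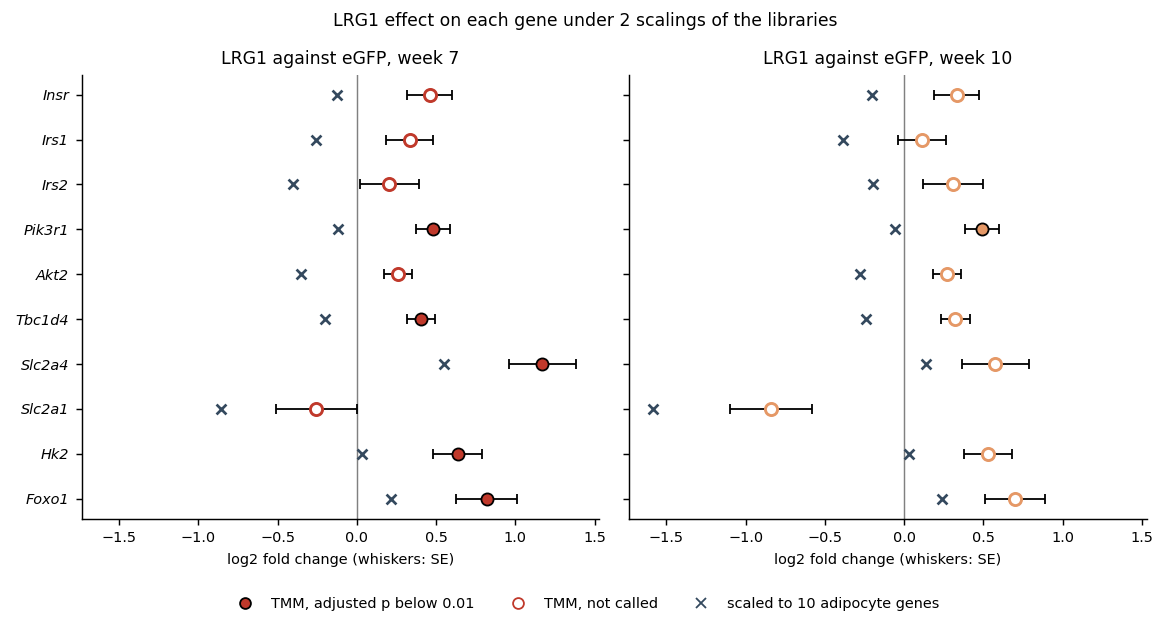
Log2 fold change of LRG1 over eGFP for each gene (horizontal axis, whiskers for the SE) at week 7 and week 10, with circles for TMM scaling, filled where the adjusted p was below 0.01, and crosses for scaling to 10 adipocyte genes. Slc2a4 is at 1.17 and 0.55 under the TMM and adipocyte scalings at week 7, while Pik3r1, at 0.48 and -0.12, changes sign with the scaling.

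Markers of other cells moved with virus in the same libraries. The summed level of 16 adipocyte genes was 30490 to 36797 CPM in LRG1 libraries and 24025 to 24343 CPM in eGFP libraries at week 7, with 3 genes called higher and 0 lower. That of 14 macrophage genes was 2033 to 2300 CPM in LRG1 libraries and 4240 to 5353 CPM in eGFP libraries, with 11 called lower and 0 higher. The 10 endothelial genes summed to 525 to 718 CPM in LRG1 libraries and 304 to 394 CPM in eGFP libraries, with 8 called higher. Of 14 lymphocyte genes 9 were called lower, at 8.80 to 26.4 CPM in LRG1 libraries and 47.2 to 89.4 CPM in eGFP libraries. Of 10 mural genes 3 were called higher and 0 lower, of 10 progenitor genes 2 higher and 2 lower, and of 10 mesothelial genes 0. Over all tested genes 7.37% were called higher and 10.7% lower at week 7. The part of cell composition in the 10 genes was not tested beyond the scaling to adipocyte genes, under which the median of all tested genes moved to -0.58 at week 7 and -0.51 at week 10.

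At week 10 the same genes were mostly on the same side, but Pik3r1 alone was called higher and 0 genes were called lower. Of all tested genes 3.66% were called higher and 5.24% lower (8.9% in either direction). The median log2 fold change of the 10 genes was 0.33, against -0.005 over all tested genes. Pik3r1, Akt2, Slc2a4, Hk2 and Foxo1 did not overlap between the groups, 5 of 10 genes, which was so in this direction for 9.96% of tested genes. For Akt2 the groups nearly met, with the lowest LRG1 library at 108.65 CPM and the highest eGFP library at 108.38 CPM. Relative to the 10 adipocyte genes Slc2a4, Hk2 and Foxo1 were above 0 at this week too, and Insr, Irs1, Irs2, Pik3r1, Akt2 and Tbc1d4 below 0.

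Pik3r1 had 346, 342, 388 and 388 CPM in LRG1 libraries of week 10, against 229.9, 281, 232 and 299 CPM in eGFP libraries. Its log2 fold change was 0.49 (SE 0.11, adjusted p = 0.0057), and -0.06 (adjusted p = 0.79) when scaled to the adipocyte genes. The TMM value was not called in a fit of only the 8 libraries of week 10 (adjusted p = 0.042). Slc2a4 had 51.9, 58.4, 57.4 and 54.1 CPM in LRG1 libraries, against 20.6, 47.8, 28.7 and 51.7 CPM in eGFP libraries. All LRG1 libraries were above, by as little as 51.9 against 51.7 CPM, and the log2 fold change was 0.58 (SE 0.21, adjusted p = 0.059). Foxo1 had 97.9, 90.5, 97.2 and 106 CPM in LRG1 libraries, against 42.0, 82.2, 41.5 and 75.4 CPM in eGFP libraries, at 0.70 (SE 0.19, adjusted p = 0.017). Hk2 had 67.9, 59.0, 60.2 and 74.9 CPM in LRG1 libraries, against 34.7, 53.5, 38.4 and 54.8 CPM in eGFP libraries, at 0.53 (SE 0.15, adjusted p = 0.021). These 3 genes did not pass with edgeR, although their LRG1 libraries were all higher. DESeq2 called Foxo1 (adjusted p = 0.0037) and Hk2 (adjusted p = 0.0072) and did not call Slc2a4 (adjusted p = 0.034).

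Slc2a1 stood out at week 10 by its spread among controls. It had 7.74, 8.43, 9.24 and 6.45 CPM in LRG1 libraries, against 20.3, 7.65, 19.8 and 9.51 CPM in eGFP libraries, a log2 fold change of -0.84 (SE 0.26, adjusted p = 0.028). The eGFP libraries 1 and 3 were above all others and the remaining pair overlapped the LRG1 libraries. It was called lower by DESeq2, at -0.85 (adjusted p = 0.0080), and when scaled to the adipocyte genes, at -1.59 (adjusted p = 0.0056). Among the signalling genes, Akt2 was at 0.27 (SE 0.09, adjusted p = 0.036), Tbc1d4 at 0.32 (SE 0.09, adjusted p = 0.019, and 0.0080 with DESeq2), Insr at 0.33 (SE 0.14, adjusted p = 0.10) and Irs2 at 0.31 (SE 0.19, adjusted p = 0.25). Irs1 was at 0.11 with a 95% interval of -0.21 to 0.43, and its 12.8, 23.6, 12.9 and 16.1 CPM in eGFP libraries spanned the 16.9, 19.6, 16.9 and 17.1 CPM of the LRG1 libraries.

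The eGFP libraries of week 10 fell into pairs. Libraries 1 and 3 had lower CPM than libraries 2 and 4 for 8 of the 10 genes and higher CPM for Slc2a1, and the pairs overlapped for Tbc1d4 alone. The same libraries 1 and 3 had 20674 and 24715 CPM over the 16 adipocyte genes, against 30338 and 31072 CPM in libraries 2 and 4. Their macrophage genes summed to 6595 and 6891 CPM, against 2877 and 3897 CPM, and their endothelial genes to 272 and 308 CPM, against 552 and 518 CPM. In the 4 LRG1 libraries of week 10 the sums were 33323 to 36060 CPM for adipocyte genes and 1994 to 2588 CPM for macrophage genes. The labels give no batch that separates the pairs, and the part of cell composition was not tested.

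**Figure D3:**
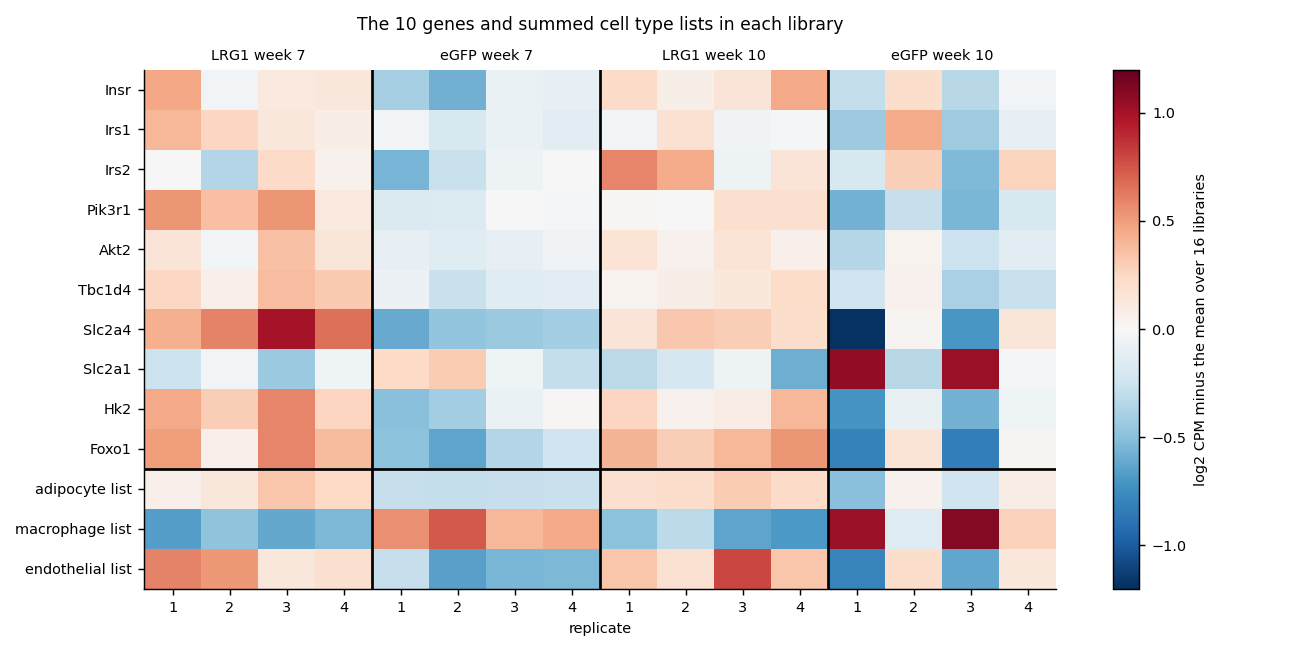
Log2 CPM minus the mean over 16 libraries (colour) for the 10 genes and for the summed adipocyte, macrophage and endothelial lists, with 1 column per library. In eGFP libraries 1 and 3 of week 10 Slc2a4 is at 20.6 and 28.7 CPM while Slc2a1 is at 20.3 and 19.8 CPM, and the macrophage sum there is 6595 and 6891 CPM.

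The week 10 comparison depended on these libraries. Leaving out both libraries 1 and 3, a choice made after seeing the values, gave 0 called genes among the 10 and 161 of all genes, with Slc2a4 at 0.16, Foxo1 at 0.31, Hk2 at 0.27, Slc2a1 at -0.11 and Pik3r1 at 0.34 (adjusted p = 0.094), and Irs1 at -0.17. Leaving out libraries 2 and 4 in the same way gave 9 called genes and 6365 of all genes, with Slc2a4 at 1.17, Foxo1 at 1.23, Hk2 at 0.84 and Slc2a1 at -1.33. As the pairs were told apart by these levels, the values are a description. Of single libraries, leaving out eGFP library 2 gave 6 called genes and eGFP library 4 gave 3, while leaving out eGFP library 1, eGFP library 3 or LRG1 library 1, 3 or 4 gave 0.

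No difference of the LRG1 effect between weeks 10 and 7 was called for any of the 10 genes by the interaction test (edgeR, 0 called, and 0 at an unadjusted p below 0.05). Over all 20822 tested genes 0.327% were called, and 1953 genes had an unadjusted p below 0.05. The intervals were wide. For Slc2a4 the difference of the log2 fold changes was -0.59 (SE 0.30, adjusted p = 0.58, 95% interval -1.22 to 0.03), and for Slc2a1 it was -0.59 (SE 0.36, adjusted p = 0.72, interval -1.36 to 0.18). For Pik3r1 it was 0.01 (SE 0.15), with an interval of -0.31 to 0.33. DESeq2 and limma-voom called 0 of the 10 as well.

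Between the weeks within a virus 0 of the 10 genes were called by edgeR. In LRG1 fat 0.00961% of all genes were called. Of the 10 genes 1, Pik3r1, had an unadjusted p below 0.05, as had 1746 of the 20822 tested genes. Slc2a4 had 51.9 to 58.4 CPM at week 10 and 63.0 to 93.4 CPM at week 7 in LRG1 libraries, so all libraries of week 10 lay below those of week 7 (so for 3.41% of tested genes), at -0.44 on the log2 scale (SE 0.21, adjusted p = 0.60). In eGFP fat 2.14% of all genes were called. An unadjusted p below 0.05 was found for 4131 of the 20822 tested genes and for 1 of the 10. That 1 gene, Pik3r1, had 229.9 to 299 CPM at week 10 and 303 to 338 CPM at week 7, likewise without overlap (so for 6.89% of tested genes), at -0.30 (SE 0.11, adjusted p = 0.12). Pik3r1 was at -0.29 (SE 0.11, adjusted p = 0.49) in LRG1 fat, where the weeks overlapped. No other of the 10 genes was without overlap between weeks. DESeq2 and limma-voom also called 0.

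Levels of different genes were compared as CPM per kilobase of exon. Pik3r1 was the most abundant of the 10 in all 4 groups, at 44.3 ± 5.77 in LRG1 and 31.8 ± 1.96 in eGFP libraries of week 7 (SD, n = 4 each), and its range was apart from the next gene. In LRG1 fat of week 7 Slc2a4 came next at 21.6 ± 3.72, overlapping Akt2 at 16.5 ± 1.80. In eGFP fat of week 7 Akt2 came next at 13.8 ± 0.383 and was apart from Slc2a4 at 9.61 ± 0.562. Hk2, Foxo1, Insr and Tbc1d4 followed in this order in both groups, then Irs2, Slc2a1 and Irs1. In eGFP fat each of Hk2, Foxo1 and Insr overlapped the next lower gene, whereas in LRG1 fat Foxo1 was apart from Insr. At week 10 Slc2a4 and Akt2 overlapped in both groups, at 15.9 ± 0.854 and 15.9 ± 0.676 in LRG1 fat and 10.7 ± 4.29 and 13.2 ± 1.55 in eGFP fat. The lowest 2 of the order were Slc2a1 and Irs1 in every group.

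Ratios between family members within a library do not depend on the scaling of libraries, and they were read as descriptions. Length-adjusted Akt2 over Akt1 was 0.964 ± 0.103 in LRG1 and 0.576 ± 0.0723 in eGFP libraries of week 7 (SD, n = 4 each), and 0.957 ± 0.0939 and 0.540 ± 0.179 at week 10, without overlap at either week. Hk2 over Hk1 was 4.65 ± 0.820 in LRG1 and 1.93 ± 0.453 in eGFP libraries at week 7, and 3.53 ± 0.708 and 1.71 ± 0.861 at week 10, again without overlap. Foxo1 over Foxo3 was 1.12 ± 0.0906 in LRG1 and 0.745 ± 0.0425 in eGFP libraries at week 7, and 1.05 ± 0.0226 in LRG1 and 0.717 ± 0.223 in eGFP libraries at week 10. These 3 ratios kept the groups apart at both weeks. Slc2a4 over Slc2a1 was 9.15 ± 2.73 in LRG1 and 3.43 ± 0.824 in eGFP libraries at week 7 without overlap, and 7.11 ± 0.947 and 3.56 ± 2.71 with overlap at week 10. Tbc1d4 over its paralog Tbc1d1 behaved alike, at 1.58 ± 0.205 in LRG1 and 0.830 ± 0.0788 in eGFP libraries of week 7, with overlap at week 10. Insr over Igf1r, the receptor gene for IGF1, was 4.53 ± 0.203 in LRG1 and 4.68 ± 0.382 in eGFP libraries of week 7, and both it and Irs1 over Irs2 overlapped at both weeks. A ratio shows unequal change of a pair and not which of them changed.

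Shares within families, added after the values were seen, placed the genes among all their relatives. Hk2 made up 64.5% ± 4.62 of hexokinase transcripts per kilobase in LRG1 and 28.7% ± 5.21 in eGFP libraries of week 7 (SD, n = 4 each), and 59.8% ± 5.29 and 28.7% ± 17.9 at week 10. The counterpart was Hk3, a hexokinase of myeloid cells, with 20.97% ± 3.30 in LRG1 and 55.9% ± 4.60 in eGFP libraries of week 7, and 22.5% ± 4.09 and 55.2% ± 20.5 at week 10. Hk3 thus held the largest hexokinase share in eGFP fat and Hk2 in LRG1 fat at week 7. Slc2a4 was 60.1% ± 3.44 of the Slc2a transporter genes in LRG1 and 46.0% ± 1.68 in eGFP libraries of week 7, and 54.9% ± 2.66 and 46.1% ± 12.5 at week 10. Akt2 was 42.1% ± 2.88 of AKT transcripts in LRG1 and 31.0% ± 2.81 in eGFP libraries of week 7, where Akt1 held 43.8% ± 1.81 and 54.0% ± 2.30. The share of Pik3r1 among Pik3r1, Pik3r2, Pik3r3 and Pik3r5 was 77.1% ± 2.95 in LRG1 and 58.9% ± 4.04 in eGFP libraries of week 7. Pik3r5, the regulatory subunit of the leukocyte PI3K-gamma, was at 8.67% ± 2.01 and 26.7% ± 3.83. With Pik3r5 left out, the Pik3r1 shares lay closer together, at 84.44% ± 1.66 in LRG1 and 80.34% ± 1.35 in eGFP libraries of week 7. Among the IRS genes Irs3, which is expressed in mouse fat, was the most abundant, at 57.2% ± 4.08 in LRG1 and 61.4% ± 6.14 in eGFP libraries of week 7, above Irs2 at 28.2% ± 4.46 and 26.2% ± 5.51 and Irs1 at 14.6% ± 1.56 and 12.4% ± 1.14. Irs3 itself was at -0.02 on the log2 scale at week 7 (SE 0.17, adjusted p = 0.94).

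**Figure D4:**
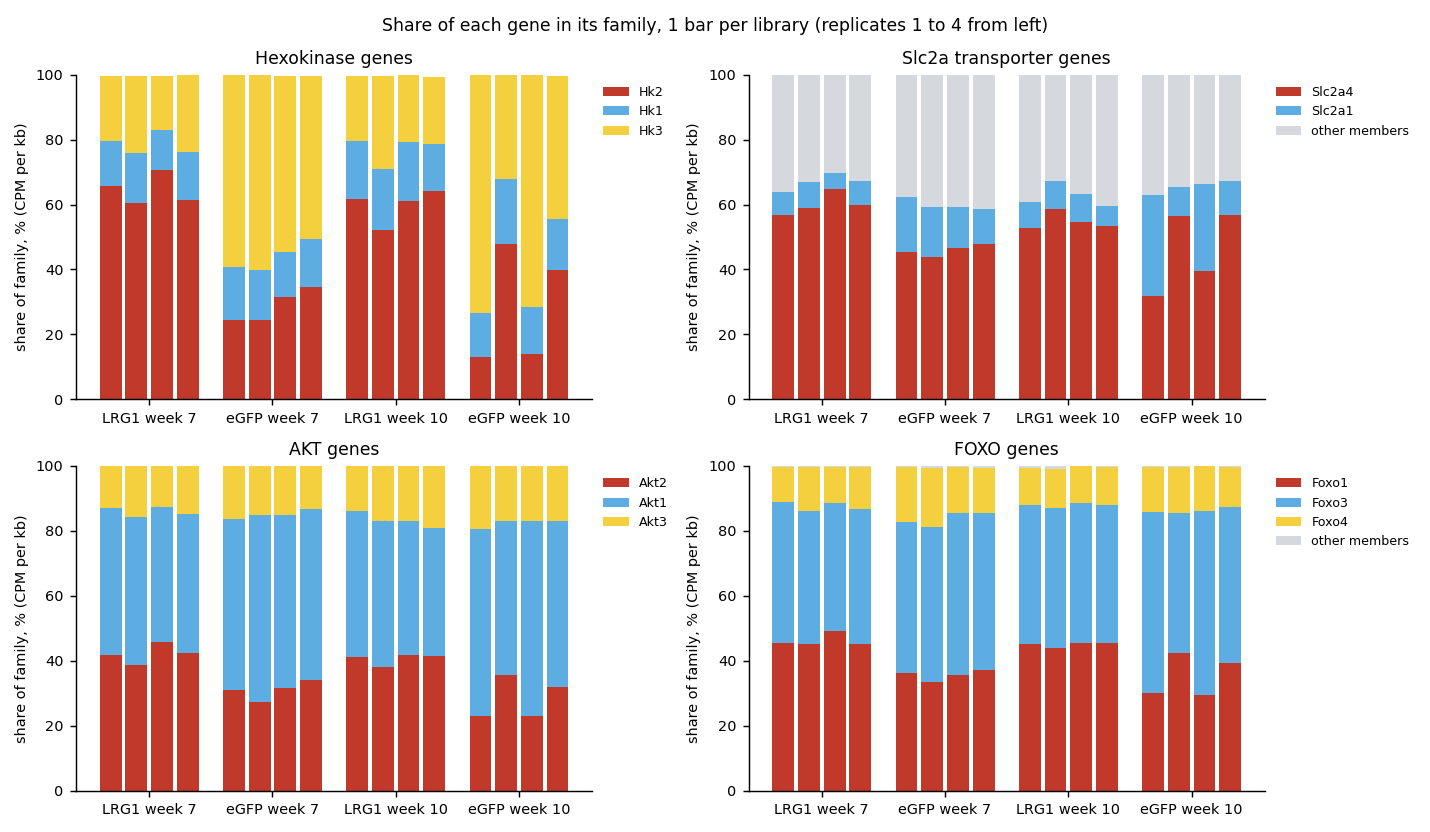
Share of each gene in its family (vertical axis, % of summed CPM per kilobase, from 0 to 100), 1 bar per library, for hexokinase, Slc2a transporter, AKT and FOXO genes. Hk2 takes 60.4% to 70.5% of the hexokinase transcripts in LRG1 and 24.4% to 34.7% in eGFP libraries of week 7, and Hk3 takes 73.4% and 71.5% in eGFP libraries 1 and 3 of week 10.

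Around the 10 genes, lists of other pathway genes had calls in both directions on the TMM scale. Their counts stand against 18% of all tested genes called at week 7 and 8.9% at week 10, and nothing particular to a list was tested. At week 7, of 14 receptor and adaptor genes 2 were called higher and 2 lower, with a list median of -0.03. Igf1r was at 0.51 (SE 0.10, adjusted p = 0.0010) and Sh2b2, an adaptor of the insulin receptor, at 0.59, while the adaptor Grb2 was at -0.69 and the ubiquitin ligase Cblb at -0.34. At week 10 edgeR called 0 of the 14 and DESeq2 called 4. Of the 14, 10 had an unadjusted p below 0.05 with edgeR, as had 7634 of the 20822 tested genes. Of 22 genes that restrain insulin signalling, 3 were higher and 2 lower at week 7 (median 0.02), and 0 higher and 1 lower at week 10. Inpp5d, the SHIP1 phosphatase of blood cells, was at -1.14 at week 7 and -0.96 at week 10. Socs1, an inhibitor induced by cytokines, was at -1.40 at week 7, at a low level (highest group mean 1.45 CPM). Grb10, which binds and restrains the insulin receptor, was at 0.64 at week 7. Of 24 other kinase genes of the route 3 were higher and 4 lower at week 7 (median 0.05), and 1 higher and 3 lower at week 10. Those lower at both weeks included leukocyte PI3K subunits, with Pik3cd at -1.28 and -0.70 and Pik3r5 at -1.56 and -1.57 at weeks 7 and 10, and Akt1 at -0.50 and -0.63. Mtor, the growth kinase downstream of AKT, was higher at 0.62 and 0.54. Pik3cg, the catalytic subunit of PI3K-gamma, was at -0.79 at week 7.

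Genes of GLUT4 vesicle traffic were also split. Of 24, 3 were called higher and 4 lower at week 7 (median -0.02), and 1 higher and 2 lower at week 10. Sort1, the sortilin of GLUT4 storage vesicles, was at 0.61 (SE 0.07, adjusted p = 2.4e-05) and Ralgapa2, a subunit of the RAL GTPase-activating complex under AKT, at 0.78 at week 7. Rhoq, the GTPase TC10, was at 0.57 at week 7 and 0.65 at week 10. Stxbp3, the Munc18c protein that binds the plasma membrane SNARE, was at -0.61 and -0.40, Tbc1d1 at -0.52 at week 7, and Dennd4c, an exchange factor for RAB10, at -0.80 at week 10. Of 10 other glucose transporter genes, all Slc2a genes except Slc5a2, 5 were higher and 2 lower at week 7 (median 0.59). At week 10, 3 of them were higher and 0 lower (median 0.59). Slc2a13, a myo-inositol transporter, was at 1.42 and 1.08 and Slc2a10 at 0.76 and 1.06 at weeks 7 and 10, and Slc2a12, the GLUT12 gene, at 1.22 at week 10. Slc2a2, the GLUT2 gene, was at 1.13 and Slc2a9, a urate transporter, at -0.79 at week 7. Levels were low for Slc2a2 and Slc2a12, with highest group means of 3.28 and 2.69 CPM.

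Downstream of uptake, most calls of glycogen genes on the TMM scale were higher. Of 18 glycogen genes 9 were called higher and 1 lower at week 7 with a list median of 0.45. At week 10, 3 were higher and 0 lower with a median of 0.29. Over all tested genes 7.37% were called higher and 10.7% lower at week 7, and 3.66% and 5.24% at week 10. The 16 adipocyte genes had medians of 0.57 and 0.44, so this side was not particular to glycogen genes. Pygl, a glycogen phosphorylase, had 579.7 CPM in LRG1 and 232 CPM in eGFP fat at week 7 (means of 4), at 1.32 (SE 0.19, adjusted p = 1.5e-04), and it was at 0.89 at week 10. Gbe1, the branching enzyme, was at 0.85, Phkb, a subunit of phosphorylase kinase, at 0.61 and Ugp2, which makes UDP-glucose, at 0.45 at week 7. At week 10 Phkb was at 0.50 and Ppp1r3d, which targets protein phosphatase to glycogen, at 0.59. Of 26 glycolysis genes 6 were higher and 3 lower at week 7 (median 0.21), and 3 higher and 2 lower at week 10 (median 0.01). Aldoa was at 0.58 and Eno1 at 0.46 at week 7, and Pfkl at 0.54 and Tpi1 at 0.38 at week 10. Those lower were Aldoc at -1.47 at week 7 (highest group mean 2.27 CPM), Hk3 at -1.96 and -2.31, and Hk1 at -0.64 and -0.67 at weeks 7 and 10.

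Of 19 FOXO family and target genes 2 were higher and 1 lower at each week, with medians of 0.08 and 0.05 at weeks 7 and 10. Over all tested genes 18% were called at week 7 and 8.9% at week 10. Sesn3, a sestrin gene induced by FOXO factors, was at 0.66 and 0.59 at weeks 7 and 10, Bcl2l11, the BIM gene, at -0.99 at week 7, and Sod2 at 0.56 and Fbxo32 at -0.74 at week 10. Of 17 genes for regulators of Slc2a4, 2 were higher and 0 lower at each week, with medians of 0.03 and 0.07. These were Ebf1 at 0.74 and Klf15 at 1.16 at week 7, and Mlxipl, the ChREBP gene, at 0.99 and Pparg at 0.52 at week 10. Klf15 stands on the FOXO list as well, and Pparg also on the adipocyte list. Scaled to the adipocyte genes, the count of genes called over all genes shifted to 58 higher and 4728 lower at week 7, so the directions in these lists are relative to the scaling used.

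**Figure D5:**
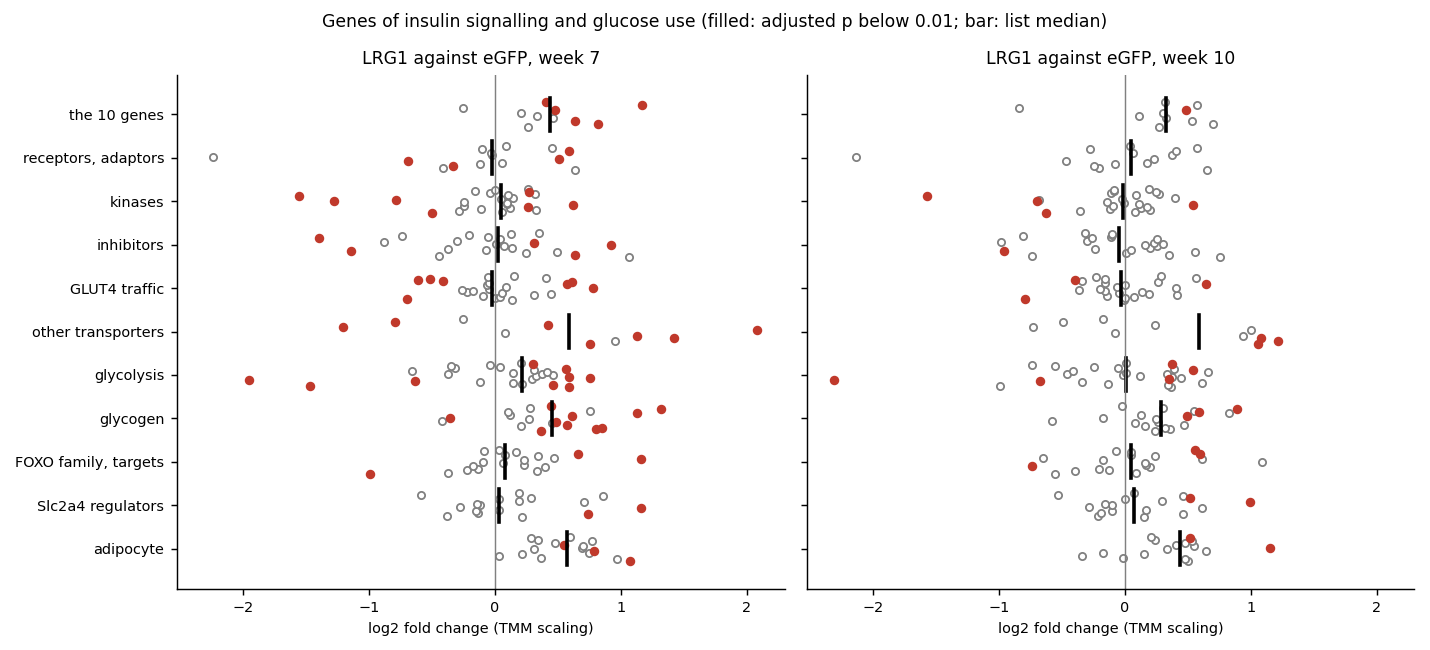
Log2 fold change of LRG1 over eGFP on TMM scaling (horizontal axis) for each tested gene of 11 lists at week 7 and week 10, filled where the adjusted p was below 0.01, with a bar at each list's median. The medians at week 7 are 0.43 for the 10 genes, 0.45 for glycogen genes and 0.57 for adipocyte genes, and -0.03 for receptors and adaptors, and these positions are relative to the whole transcriptome.

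Genes whose levels followed those of the called genes most closely over the 16 libraries were found by the root mean square difference of mean-centred log2 CPM among 14892 genes. For Slc2a4 these were Dhdh (0.16), Tmem120b (0.17) and Matn2 (0.17), where the values of Slc2a4 itself varied by 0.56. For Foxo1 they were Utrn (0.10), Npr3 (0.11) and Zfp423 (0.11), against 0.48 for Foxo1 itself. Hk2 was followed most closely by Kctd3 (0.11), Nid2 (0.12) and Lrig1 (0.12), Pik3r1 by Prmt5 (0.11), Idh3a (0.12) and Ggcx (0.12), and Tbc1d4 by Ndufab1 (0.08), C330018D20Rik (0.09) and Selenoi (0.09).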

How the data were processed

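The authors trimmed reads with Cutadapt, aligned them to GRCm38 (mm10) with STAR and counted them per Ensembl gene with featureCounts, and the deposited counts were not normalized. Tool versions, strand setting and the counting of multi-mapping reads are not given in the sources used here. Gene lengths from the count table served only for CPM per kilobase, ratios and shares. Totals per library were 45376227 to 67539937.

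The test was the quasi-likelihood test of edgeR 4.0.16 under R 4.3.3, with TMM factors of 0.847 to 1.10 and filterByExpr by group, in 1 model of the 16 libraries without covariates, and 20822 of 55573 genes were kept. The comparisons were LRG1 against eGFP at each week, the difference of these, and week 10 against week 7 for each virus, with calls at p below 0.01 after Benjamini-Hochberg adjustment over all tested genes. The procedure was tested on simulated data. Alternatives were DESeq2 1.42.0, limma-voom (3.58.1), fits of 8 libraries, other scalings and filters, a replicate block, a threshold of 0.05 and leaving out each library. The adipocyte scaling used Adipoq, Plin1, Plin4, Cidec, Lipe, Fabp4, Pparg, Cebpa, Acvr1c and Lpl.

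The 10 genes, the lists and the tests were chosen with earlier results of these data known. Named are the 10 genes, their paralogs in ratios, up to 4 genes of each pathway list with the smallest adjusted p at a week and at least 1 CPM, and the 3 nearest profiles of each called gene. A gene that this rule names is not reported here. Other names (Irs3, cell markers) were added after their values were seen. Replicate numbers did not pair the libraries (24 same-number pairs, median correlation of deviations -0.0126, -0.200 to 0.142). No 2 libraries of a group were duplicates (correlation 0.963 to 0.987). Promoters are RefSeq windows of GRCm38.p6.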

Additional observations from a re-analysis of the deposited data

Results flagged for a closer look

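Irs1 in LRG1 library 2 of week 10 was 19.63 CPM, far from the 16.9, 16.9 and 17.1 CPM of the other 3 LRG1 libraries of that week. Its gap to the nearest library was 0.904 of the range of the group, above Dixon's 95% critical value for 4 samples. Of the 40 groups of values examined (10 genes in 4 groups) it was the only 1 past that value, and chance gives about 1 in 20. Irs1 was not called at week 10 with or without this library.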

How the results depend on the processing

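At week 7 the count of called genes among the 10 (5) was 6 with DESeq2, 6 in a fit of the 8 libraries, 7 at an adjusted p below 0.05, 1 with library totals only and 1 with adipocyte gene scaling (Slc2a4), and 1 to 5 when 1 library was left out. At week 10 the count (1) was 5 with DESeq2 (Pik3r1, Tbc1d4, Hk2 and Foxo1 higher and Slc2a1 lower), 1 with adipocyte scaling (Slc2a1, lower), 0 in a fit of the 8 libraries, 0 with library totals only, 0 with the replicate block and 6 at an adjusted p below 0.05, and 0 to 6 when 1 library was left out. Without both eGFP libraries 1 and 3 it was 0 and without both eGFP libraries 2 and 4 it was 9, choices made after seeing the data. Other comparisons gave 0 under every alternative run. Over all genes, week 7 (3755) gave 5727 in a fit of 8 libraries, 6555 at 0.05 and 2239 to 2956 when 1 library was left out. Week 10 (1854) gave 3510 with DESeq2, 12 in a fit of 8 libraries, 4182 with adipocyte scaling, 1174 with the replicate block, 4761 at 0.05, 284 to 3647 with 1 library left out, and 161 and 6365 without the 2 eGFP pairs. The split of calls into higher and lower was 1534 and 2221 at week 7, and 341 and 3636 with library totals, 1993 and 1957 with upper quartile and 58 and 4728 with adipocyte scaling. At week 10 it was 762 and 1092, and 320 and 1136 (library totals), 804 and 639 (limma-voom) and 109 and 4073 (adipocyte scaling).

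Directions that turned round were these. With adipocyte gene scaling, week 7 values were -0.13 for Insr, -0.26 for Irs1, -0.40 for Irs2, -0.12 for Pik3r1, -0.35 for Akt2 and -0.20 for Tbc1d4, and week 10 values -0.20, -0.39, -0.19, -0.056, -0.28 and -0.24 for the same genes. Irs1 at week 10 was -0.17 without eGFP libraries 1 and 3. The difference between weeks turned for Pik3r1 (-0.020) and Akt2 (-0.020) with upper quartile scaling, for Insr (0.0021), Tbc1d4 (0.055), Hk2 (0.035) and Foxo1 (0.0052) with library totals and for Foxo1 (0.024) with adipocyte scaling. Irs1 between weeks in eGFP fat was -0.0078 with limma-voom, -0.064 with library totals, -0.048 with adipocyte scaling and -0.0029 with the replicate block. The block changed no other direction among the 10 genes and lost the call of Pik3r1 at week 10, though the replicate numbers did not pair the libraries. The causes were not tested.

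Leaving out 1 library turned the sign of some values near 0, none of them called. The difference between weeks then ran from -0.33 to 0.0086 for Irs1, -0.035 to 0.21 for Irs2, -0.072 to 0.084 for Pik3r1, -0.048 to 0.087 for Akt2, -0.14 to 0.015 for Tbc1d4 and -0.26 to 0.067 for Foxo1. Week 10 against week 7 in eGFP fat ran from -0.20 to 0.13 for Irs1, -0.15 to 0.0073 for Tbc1d4, -0.046 to 0.36 for Slc2a4, -0.20 to 0.018 for Hk2 and -0.050 to 0.28 for Foxo1. In LRG1 fat it ran from -0.028 to 0.16 for Insr, -0.11 to 0.017 for Akt2 and -0.079 to 0.087 for Foxo1.

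The lowest count of the 10 genes in a library was 358. Each group held 4 libraries, cages are not labelled, and the eGFP libraries of week 10 were split.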
